A study of Mus musculus with 48 samples.

Results

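Oligodendrocytes are the glial cells that wrap axons of the central nervous system in myelin, a stacked membrane rich in galactolipids and cholesterol that insulates the axon and speeds conduction. They arise through adult life from dividing precursor cells, which stop dividing, pass through a committed precursor stage and then switch on the genes for myelin proteins and myelin lipid synthesis under transcription factors such as Sox10, Olig2 and Myrf. The hippocampus holds both precursors and myelinating cells among its neurons, so RNA from whole tissue contains their transcripts although most of its RNA comes from other cells. The 32 genes described here are the genes of this lineage: 6 of precursors and committed precursors, 3 transcription factors active at all its stages, and 23 of mature oligodendrocytes, of which 2 are regulators, 11 are myelin membrane and junction proteins, 6 are lipid-synthesis and other enzymes, and 4 are secreted carriers or receptors. They were chosen by symbol from a fixed list, and all 32 were found among the 47729 gene IDs of the whole-tissue RNA tables. These genes and the further lists counted below were chosen with earlier results of these data known.

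The mice were adults of 4 to 6 months on the C57BL/6J strain, either labelled control or carrying a conditional knockout (cKO) of Setd1b, an enzyme of the H3K4 methyltransferase family that adds methyl groups to lysine 4 of histone H3. The labels do not name the Cre driver of the deletion, and the published account of this model, given here as background, describes deletion in forebrain excitatory neurons by Cre under the CaMKII promoter. RNA was sequenced from whole hippocampal CA tissue (6 libraries labelled cKO, 6 labelled control) and from hippocampal CA neurons (3 and 3), and neuronal nuclei were profiled by ChIP-seq for H3K4me3, H3K4me1, H3K27ac and H3K9ac with 3 or 4 libraries per mark and genotype. Nothing in the labels says that the libraries of a group came from separate animals, so p-values measure the spread between these libraries, which may be technical.

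In whole CA tissue, libraries labelled cKO and libraries labelled control held similar levels of most of these genes. Of the 32 genes, all tested, 1 passed the test and fell: Ugt8a, which makes galactosylceramide, the main galactolipid of myelin. None rose. Over the 15362 genes tested, 2.79% were called lower and 1.38% higher by edgeR's quasi-likelihood test at a Benjamini-Hochberg adjusted p under 0.05, so 1 of 32 is near the background share. The median log2 fold change (cKO over control) was 0.00 over the mature genes, −0.08 over the precursor genes and −0.01 over the transcription factors, against 0.00 over all genes tested. In bulk tissue fewer cells of a type and less RNA per cell cannot be told apart, and this holds for every whole-tissue value below.

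**Figure D1:**
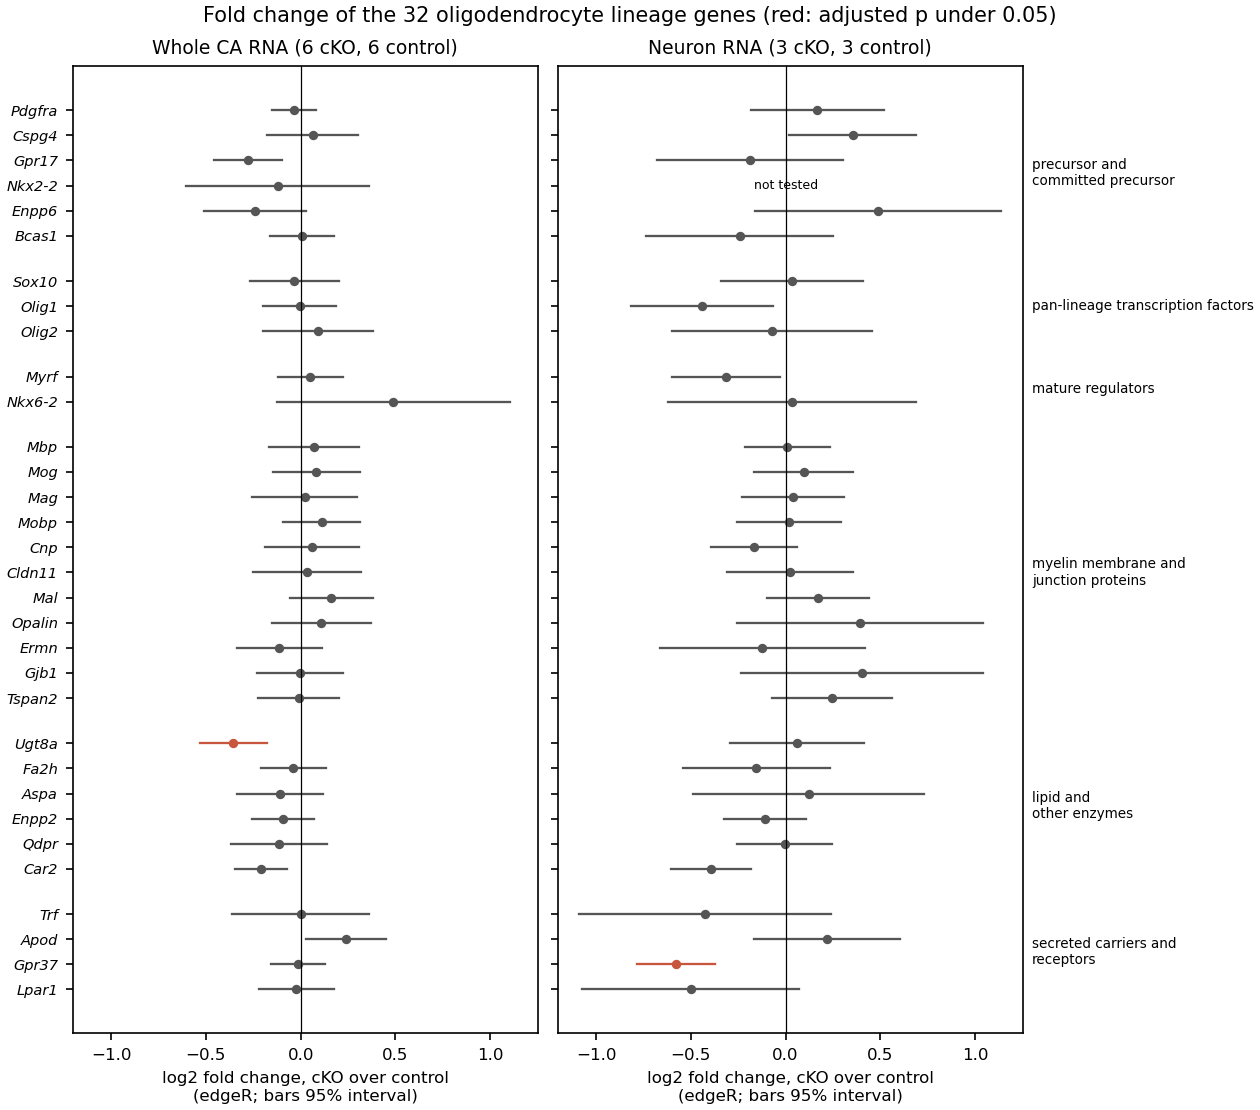
Log2 fold change (libraries labelled cKO over control) of each of the 32 genes in whole CA RNA (6 against 6 libraries) and in neuron RNA (3 against 3), grouped by role, with bars for the 95% confidence interval. Most intervals include 0, with Ugt8a called lower in whole tissue and Gpr37 in neurons.

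Total counts ran from 14878128 to 20100286 in the whole-tissue libraries and from 55735204 to 69071100 in the neuron libraries. The mitochondrial share was 3.41 to 7.05% in whole tissue and 0.00814 to 0.0144% in neurons. Levels are given as CPM, read counts scaled to the size of each library. Setd1b RNA went against the labels in whole tissue, with 39.6 ± 8.68 CPM (SD, n = 6) where the label was control and 59.4 ± 6.29 where it was cKO (log2 difference 0.59, SE 0.11, edgeR adjusted p = 0.00415). In neurons that difference was 0.25 (edgeR adjusted p = 0.361). These are counts over the whole gene and do not show a deleted exon apart. Every direction below rests on the labels.

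Precursor genes were examined first. Pdgfra encodes the receptor through which platelet-derived growth factor keeps precursors dividing. Its lowest, median and highest values were 64.9, 69.6 and 71.4 CPM in control whole tissue and 63.0, 65.8 and 74.6 CPM in the libraries labelled cKO. It varied less between the control libraries than any other of the 32 genes, with a coefficient of variation of 3.55%, and the fold change was −0.03 on the log2 scale with a 95% confidence interval of −0.15 to 0.08. Cspg4, the NG2 proteoglycan of the precursor surface, ran from 12.9 over a median of 17.5 to 21.7 CPM in controls and from 15.6 over 17.3 to 21.1 CPM in the cKO group. The groups of both genes lay over each other.

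Gpr17 marks precursors that have committed to differentiate and is switched off again before myelination. It had the largest difference of the precursor genes. The control libraries had 41.8 CPM at the lowest, 48.1 at the median and 54.7 at the highest, and the cKO libraries 33.4, 40.0 and 44.3. The ranges overlapped in their middle part. The log2 fold change was −0.28 (SE 0.09, 95% confidence interval −0.46 to −0.10), with an unadjusted p of 0.00438 and an edgeR adjusted p of 0.0804, which did not pass the threshold. Its sign was the same in each sequencing lane, with −0.36 among replicates 1 to 3 and −0.20 among replicates 4 to 6. DESeq2 gave Gpr17 an adjusted p of 0.0490, and without cKO replicate 4 the edgeR adjusted p was 0.0497.

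Enpp6, a choline-specific phosphodiesterase used as a marker of oligodendrocytes that have just begun to form, was lower in estimate but did not pass the test. It ran from 4.91 to 7.97 CPM with a median of 6.44 in controls, and from 4.83 to 6.10 CPM with a median of 5.65 in the cKO group (log2 −0.24, SE 0.13, edgeR adjusted p = 0.393). The remaining precursor genes, Nkx2-2 (a homeodomain factor of differentiating precursors) and Bcas1 (a marker of newly forming myelinating cells), had log2 fold changes of −0.12 and 0.01. Over the 6 precursor genes 4 estimates were below 0 and 2 above, from −0.28 to 0.06. Gpr17 was the only one of them with an unadjusted p under 0.05, a level reached by 8.52% of all genes in the lower direction and 7.17% in the higher.

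A separate list of 18 other precursor genes gave 17 estimates below 0 and 1 above, with a median of −0.11. Of these 4 had an unadjusted p under 0.05, all lower, against 8.52% of all genes, and 1 passed the test and did not overlap between groups, against 2.79% and 1.93% of all genes: Susd5, a sushi-domain protein of the cell surface, had 4.29 CPM on average in control and 2.86 in cKO libraries (log2 −0.59, SE 0.13, edgeR adjusted p = 0.0116). Several genes of that list are expressed outside the lineage as well, in astrocytes or neurons.

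Of the transcription factors that run through the lineage none passed the edgeR test, none had an unadjusted p under 0.05 and DESeq2 called none. Sox10, which is needed from specification to myelin gene transcription, ran from 25.3 to 39.7 CPM (median 28.6) in controls and from 25.4 to 36.9 CPM (median 29.4) in cKO libraries. Olig2, the basic helix-loop-helix factor that specifies the lineage, ran from 15.9 to 31.8 CPM (median 21.6) and from 17.02 to 27.9 CPM (median 23.9). Both genes had overlapping groups, with log2 fold changes of −0.03 and 0.09. Olig1, the partner of Olig2 on the same chromosome, was at −0.01.

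Among the regulators of the mature stage, Myrf is the membrane-bound factor that is cleaved to switch on and maintain myelin genes. It had 57.7, 61.2 and 78.9 CPM at the lowest, median and highest control library and 59.6, 67.0 and 74.2 CPM in the cKO group, a log2 fold change of 0.05 (95% confidence interval −0.12 to 0.22). Nkx6-2, a homeodomain factor of mature cells, was near the detection floor, at 1.2 to 4.23 CPM over both groups. Its estimate of 0.49 was the highest of the 32 genes and its interval, −0.13 to 1.11, the widest. Its coefficient of variation was also the highest of the 32 genes in both groups, 43.0% in control and 42.2% in cKO libraries.

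The 11 myelin membrane and junction genes had a median log2 fold change of 0.06 and a range of −0.11 to 0.16, with 8 estimates above 0 and 3 below. None passed the edgeR test, none had an unadjusted p under 0.05 and DESeq2 called none. Mbp, the basic protein that compacts the cytoplasmic faces of myelin, had 1497 CPM in its lowest control library, 1573 at the median and 2525 in its highest. The cKO libraries had 1608, 1910 and 2142 CPM, all inside the control range. The fold change was 0.07 on the log2 scale with an interval of −0.17 to 0.31.

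Mog, a glycoprotein of the outermost myelin surface and a product of fully mature cells, ran from 51.2 to 74.5 CPM (median 62.4) in controls and from 50.3 to 84.5 CPM (median 66.5) in cKO libraries. Mag, the glycoprotein of the inner wrap that faces the axon, ran from 120.6 to 174.2 CPM (median 140.5) and from 98.6 to 205.8 CPM (median 143.4). Cnp, the phosphodiesterase that keeps cytoplasmic channels in myelin open, ran from 232.3 to 335.5 CPM (median 282.2) and from 203.0 to 372.2 CPM (median 291.1). For all 3 the cKO libraries spread on both sides of the control range and the log2 fold changes were 0.08, 0.02 and 0.06. The other 7 were Mobp, Cldn11 (the claudin of the tight junctions between myelin wraps), Mal, Opalin, Ermn, Gjb1 (connexin 32) and Tspan2, at 0.11, 0.03, 0.16, 0.11, −0.11, 0.00 and −0.01.

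The enzymes had all 6 estimates below 0, from −0.36 to −0.04 with a median of −0.11. This held under each scaling tried, and in each sequencing lane alone 5 of the 6 were below 0. Ugt8a (ENSMUSG00000032854) had 57.4 CPM in its lowest control library, 68.0 at the median and 78.6 in its highest, and 45.1, 54.6 and 58.2 CPM in the cKO libraries. The groups overlapped at their edges: cKO replicates 2 and 6, at 58.2 and 57.9 CPM, lay above the lowest control. The log2 fold change was −0.36 (SE 0.08, 95% confidence interval −0.53 to −0.18, edgeR adjusted p = 0.0178). It was −0.33 among replicates 1 to 3 and −0.38 among replicates 4 to 6, where with 3 libraries a group the edgeR adjusted p was 0.153 and 0.210. Without control replicate 3 the edgeR adjusted p was 0.0511, and no other single library ended the call.

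The fall of Ugt8a stood beside mature genes whose estimates went both ways. Ermn, Tspan2 and every enzyme were among those below 0, and Mal, Myrf and Apod among those above. All 7 genes fixed as oligodendrocyte markers (Mbp, Mog, Mag, Mobp, Cnp, Cldn11 and Opalin) had estimates above 0, from 0.02 to 0.11, and their summed level was 2657 to 4132 CPM in control and 2754 to 3706 CPM in cKO libraries. Among replicates 1 to 3 alone 4 of the 7 were below 0, and among replicates 4 to 6 none was. Fa2h, which adds the hydroxyl group carried by much of the galactolipid that Ugt8a makes, was at −0.04. Markers of other glia were lower in estimate: all 8 microglia markers were below 0, with a median of −0.22, 5 at an unadjusted p under 0.05 and 1 called (Cx3cr1, −0.22, edgeR adjusted p = 0.0434), while DESeq2 called 3. Of 8 astrocyte markers 6 were below 0, with a median of −0.07, 2 at an unadjusted p under 0.05 and 1 called by edgeR (Aqp4, −0.38, edgeR adjusted p = 0.0122) as by DESeq2. Over all genes 8.52% were lower at an unadjusted p under 0.05, 2.79% were called lower by edgeR and 3.54% by DESeq2. Their part in the Ugt8a value was not tested.

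Car2, the carbonic anhydrase abundant in oligodendrocytes and also present in other brain cells, was the only one of the 32 genes with groups that did not overlap in whole tissue, against 1.93% of all genes not overlapping with cKO lower and 1.15% with cKO higher. The control libraries had 187.8, 193.9 and 248.0 CPM at the lowest, median and highest, and the cKO libraries 167.2, 178.3 and 181.3. Its fitted fold change of −0.21 on the log2 scale (SE 0.06) had an edgeR adjusted p of 0.0800, so it did not pass the threshold, while DESeq2 gave it an adjusted p of 0.0467. DESeq2 called 3 of the 32 genes lower, Ugt8a, Gpr17 and Car2, and 3.54% of all genes lower. The other enzymes were Aspa, which releases acetate from N-acetylaspartate for myelin lipid, Enpp2, which makes lysophosphatidic acid, and Qdpr, which recycles tetrahydrobiopterin. Their log2 fold changes were −0.11, −0.09 and −0.12.

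**Figure D2:**
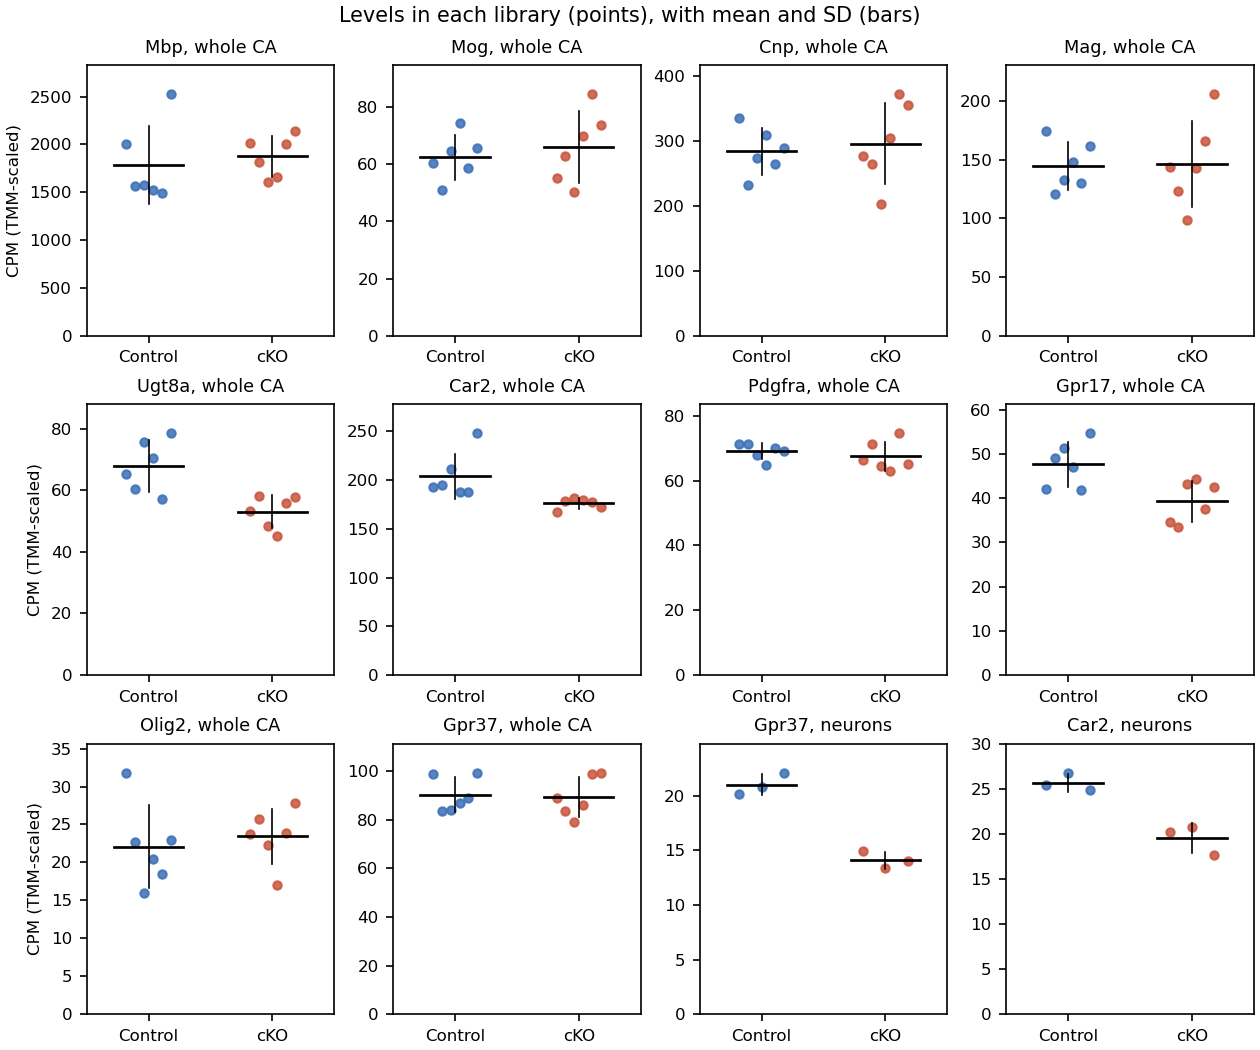
CPM in every library of whole CA RNA and neuron RNA for genes the text follows closely, with one point per library, a horizontal line at the group mean and a bar for the SD. In whole tissue the groups of the myelin genes lie over each other, while the cKO libraries of Ugt8a and Car2 sit low.

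Of the secreted carriers and receptors, Apod, a lipid-binding apolipoprotein, had the only estimate above 0 with an unadjusted p under 0.05 among the 32 genes. It ran from 93.4 to 141.2 CPM (median 114.6) in controls and from 102.5 to 156.6 CPM (median 141.9) in cKO libraries (log2 0.24, SE 0.10, edgeR adjusted p = 0.238). Trf, the iron carrier, Gpr37, a receptor of maturing oligodendrocytes, and Lpar1, a receptor for lysophosphatidic acid, were at 0.00, −0.02 and −0.02. In all, 3 of the 32 genes were lower and 1 higher at an unadjusted p under 0.05, against the shares of all genes given above.

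The intervals show what a fold change in whole tissue could have been. For 30 of the 32 genes the 95% confidence interval lay within a 1.5-fold change in either direction, the exceptions being Nkx2-2 and Nkx6-2, which had the lowest CPM. The intervals of 28 included 0. Among the mature genes 11 estimates were below 0 and 12 above.

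Libraries of one group differed among themselves. Of the 23 mature genes, control replicate 6 had the highest value of its group for 16 and control replicate 2 the lowest for 11, while cKO replicate 5 had the highest for 12 and cKO replicate 3 the lowest for 13. Measured as the log2 distance from each gene's control mean, the median over the mature genes was 0.25 in control replicate 6 and −0.16 in control replicate 2, and 0.21 in cKO replicate 5 and −0.19 in cKO replicate 3. Many mature genes were thus high in the same library and low in the same library inside each group. The median over the precursor genes ran from −0.20 to 0.24 in controls and from −0.13 to 0.01 in the cKO libraries.

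**Figure D3:**
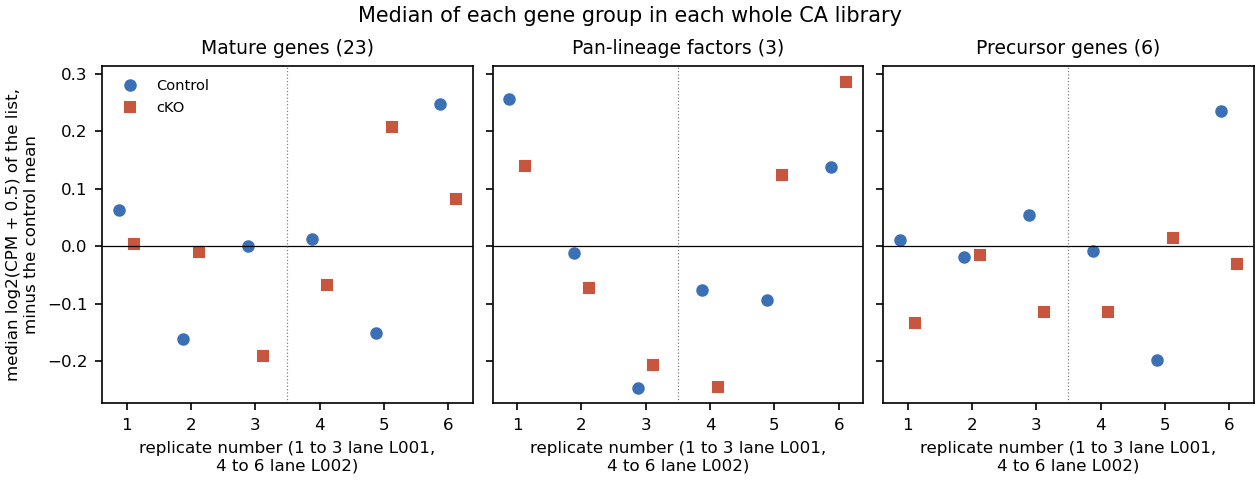
Median over the genes of a group of log2(CPM + 0.5) minus the gene's mean over control libraries, by replicate number, for the mature, lineage-wide and precursor genes, with one point per whole-tissue library and a dotted line between the sequencing lanes. Control replicate 6 and cKO replicate 5 are high and control replicate 2 and cKO replicate 3 low for the mature genes.

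Further genes of mature oligodendrocytes and of cholesterol synthesis were counted as lists. Of 30 other mature genes none was called by the edgeR test, 1 was lower and 1 higher at an unadjusted p under 0.05, DESeq2 called none, and 15 estimates were below 0 and 15 above. Cholesterol is the main sterol of myelin, and oligodendrocytes, astrocytes and neurons all make it. All 18 genes of its synthesis had estimates below 0 in whole tissue, with a median of −0.11. At an unadjusted p under 0.05 were 5, against 8.52% of all genes, and 1 was called lower, against 2.79%: Hmgcs1, which makes the substrate of the committed step, fell from 247.6 to 206.2 CPM on average (log2 −0.26, SE 0.07, edgeR adjusted p = 0.0312). In neurons 9 of the 18 were below 0 and 9 above.

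Neuron RNA was the second material. Every one of the 32 genes was lower there than in whole tissue when the control groups were compared on one scale for all 18 RNA libraries, a contrast in which 39.8% of all genes were called lower and 43.2% higher. The median log2 difference was −4.67, from −6.76 to −1.71. In neuron RNA the level was 3.90% of the whole-tissue level at the median, under 6% for 24 genes and over 10% for 8. The source and the sequencing run differ with the material, and the labels do not state how the neuron RNA was isolated.

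Bcas1 and Mobp were reduced the most, to 0.920% and 0.977% of their whole-tissue level, and Mbp to 3.04%. The 8 genes over 10% were Myrf at 30.5%, Gpr37 at 20.6%, Enpp2 at 16.8%, Qdpr at 14.5%, Nkx6-2 at 13.6%, Tspan2 at 12.2%, Car2 at 11.2% and Cspg4 at 10.9%. The group medians were 2.57% for myelin membrane genes, 3.57% for precursor genes, 4.34% for secreted carriers and receptors, 4.41% for the lineage-wide factors and 7.61% for the enzymes. For comparison, the median over markers was 2.26% for astrocytes, 3.67% for microglia, 1.31% for endothelial and mural cells and 58.3% for pyramidal neurons. Single markers ranged from 0.954 to 7.91% for astrocytes and from 2.42 to 37.8% for microglia. They ranged from 0.583 to 22.6% for endothelial and mural cells and from 23.3 to 87.0% for pyramidal neurons. Whether the remaining RNA comes from neurons or from other cells was not tested.

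**Figure D4:**
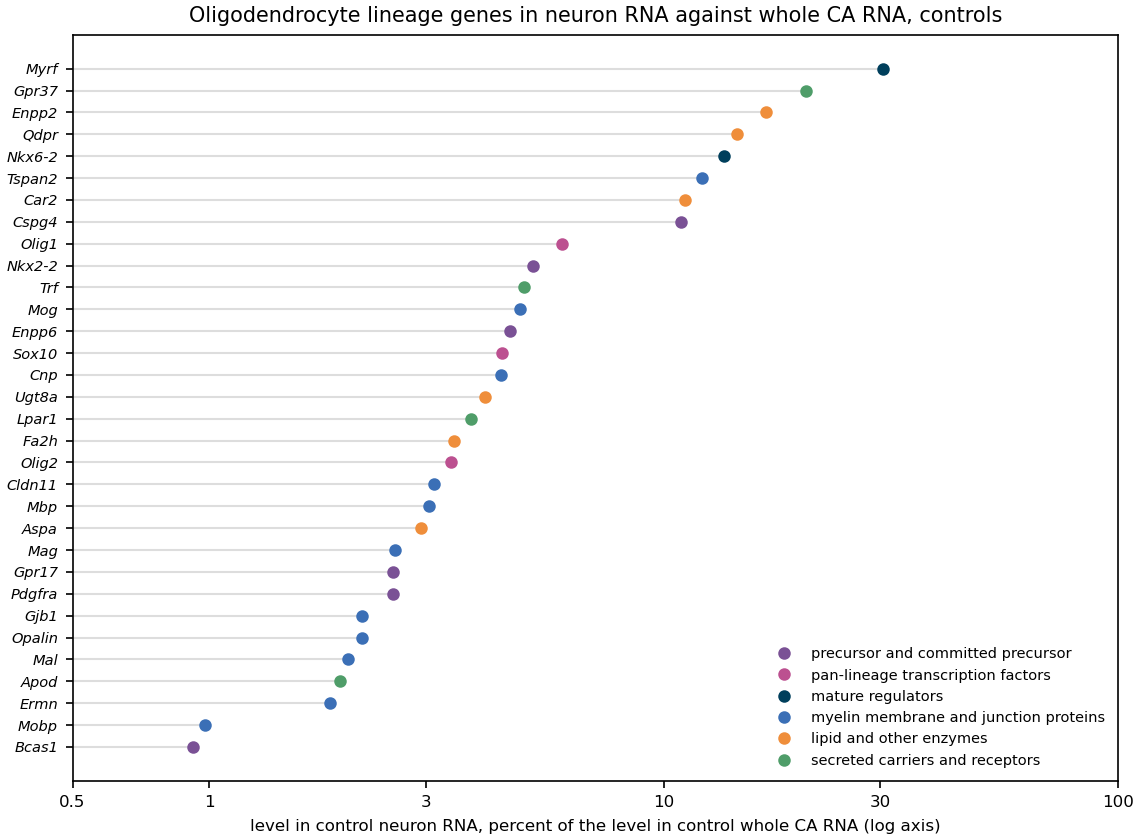
Level of each of the 32 genes in control neuron RNA as a percent of its level in control whole CA RNA (log axis), coloured by role. Of the 32 genes 24 lie under 6%, and Myrf and Gpr37 are the highest at 30.5% and 20.6%.

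In neurons 31 of the 32 genes were tested, since Nkx2-2, with 4 to 9 counts per library, was too low. The test called 1 gene lower and none higher, against 2.0% of 19622 genes called lower and 0.744% higher. The called gene was Gpr37 (ENSMUSG00000039904), which had 20.2, 20.8 and 22.1 CPM in the control libraries and 14.9, 13.4 and 13.98 CPM in the cKO libraries. The groups did not overlap. Gpr37 fell by 0.58 on the log2 scale (SE 0.09, edgeR adjusted p = 0.00951), a call that was lost at an edgeR adjusted p of 0.0512 without cKO replicate 2 and 0.0548 without control replicate 3.

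Gpr37 was called lower in neurons and not in whole tissue, and the difference itself was tested. In whole tissue controls had 83.9 to 99.4 CPM (median 88.1) and cKO libraries 79.1 to 99.5 CPM (median 87.7). The log2 fold change there was −0.02 (confidence interval −0.16 to 0.13, edgeR adjusted p = 0.949), an interval that includes small falls. Gpr37 in control neuron RNA was at 20.6% of its whole-tissue level. Whether a fall confined to neurons would be seen in whole tissue was not tested. The whole-tissue effect minus the neuron effect was 0.56 on the log2 scale (SE 0.12, edgeR adjusted p = 0.0470), the only one of the 32 genes for which this difference passed, against 0.131% of 17523 genes called in that direction and 0.0285% in the other. This call was close to the threshold: it was lost on leaving out any one of the 6 neuron libraries (edgeR adjusted p from 0.0570 to 0.211) and on leaving out any of 8 of the 12 whole-tissue libraries (the highest edgeR adjusted p being 0.0952). At an unadjusted p under 0.05 the difference was positive for Olig1, Myrf and Gpr37 and negative for Enpp6 and Ugt8a, 3 and 2 of 32 genes, against 3.99% and 4.11% of all genes. None of the 7 oligodendrocyte markers was called in neurons by edgeR or DESeq2 or had an unadjusted p under 0.05, and their summed level was 87.5 to 98.8 CPM in control and 86.3 to 100.2 CPM in cKO libraries.

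Of the other 30 genes of the 32 tested in neurons none passed the edgeR threshold, and 4 had an unadjusted p under 0.05. Myrf had 25.9, 20.3 and 20.8 CPM in control and 18.5, 15.6 and 19.8 CPM in cKO libraries (log2 −0.32, SE 0.13, edgeR adjusted p = 0.250). Car2 had 25.5, 26.8 and 24.9 CPM in control and 20.2, 20.8 and 17.7 CPM in cKO libraries (log2 −0.39, SE 0.09, edgeR adjusted p = 0.0639, DESeq2 adjusted p = 0.0164). Cspg4 had 2.33, 2.31 and 1.76 CPM in control and 2.79, 2.56 and 2.82 CPM in cKO libraries (log2 0.35, SE 0.15, edgeR adjusted p = 0.272). With Olig1 (log2 −0.44, SE 0.17), these genes and Gpr37 made 4 lower and 1 higher at an unadjusted p under 0.05, against 9.05% and 8.17% of all genes. Groups did not overlap for Myrf, Car2 and Gpr37 with cKO lower and for Cspg4 and Gjb1 with cKO higher, 3 and 2 of the 31 tested, where 12.4% and 11.4% of all genes did so. DESeq2 called Gpr37 and Car2, both lower, and 2.91% of all genes lower.

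The genes that define myelinating cells overlapped between the neuron groups. Mbp had 64.6, 62.3 and 56.7 CPM in control and 54.1, 63.8 and 66.9 CPM in cKO libraries. Mog had 3.41, 3.67 and 3.17 CPM in control and 3.75, 3.57 and 3.62 CPM in cKO libraries. Mag had 4.12, 4.36 and 4.11 CPM against 4.29, 3.85 and 4.80 CPM. These ranges lay over each other and the log2 fold changes were 0.01, 0.10 and 0.04.

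Cnp had 14.9, 14.6 and 12.7 CPM in control and 11.7, 13.2 and 12.7 CPM in cKO neurons (log2 −0.17). Sox10 had 1.67, 1.48 and 1.41 CPM against 1.64, 1.33 and 1.71 CPM, and Olig2 0.943, 0.943 and 0.654 CPM against 0.946, 0.780 and 0.678 CPM. Neither factor separated the groups. Pdgfra had 1.69, 2.23 and 2.04 CPM in control and 2.45, 2.21 and 2.02 CPM in cKO neurons, and Gpr17 1.16, 1.54 and 1.41 CPM against 1.32, 0.873 and 1.43 CPM. Enpp6 had 0.314, 0.439 and 0.262 CPM in control and 0.555, 0.437 and 0.428 CPM in cKO neurons, from 18 to 37 counts per library. For each of these precursor genes the groups overlapped. Ugt8a, called lower in whole tissue, had 2.415, 3.527 and 3.372 CPM in control and 3.273, 3.383 and 3.049 CPM in cKO neurons. It was at 0.06 in neurons on the log2 scale (edgeR adjusted p = 0.878). The difference of −0.42 between both effects had an edgeR adjusted p of 0.569. Over the 23 mature genes the median in neurons was 0.02, the same as over all genes, and over the 5 precursor genes tested it was 0.17. For 14 of the 31 genes the interval lay within a 1.5-fold change. Of the 18 other precursor genes 12 estimates in neurons were below 0 and 6 above. One was called lower, against 2.0% of all genes: Itpr2, the intracellular calcium channel, with 10.2 CPM on average in control and 5.43 in cKO libraries (log2 −0.91, SE 0.11, edgeR adjusted p = 0.00199). Groups did not overlap for 5 of the 18, all with cKO lower, against 12.4% of all genes. Of the 30 other mature genes 28 were tested in neurons and none was called. At an unadjusted p under 0.05 were 2 lower and 6 higher, against 9.05% and 8.17% of all genes.

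The start sites of the genes were then described in neuronal chromatin. RefSeq start sites on build GRCm38.p6 were at hand for 22 of the 32 genes, with 30 start sites in all. The 250 bases before 6 of these starts are shown because they cover the range from sites without an H3K4me3 peak in any control library (Mog, Mobp and the CpG-rich Olig2) to those with one in every control library (Cnp, Ugt8a and Gpr37). Each reads 5′ to 3′ along the gene's strand, taken from RefSeq, with every CpG dinucleotide in capitals.
Mog: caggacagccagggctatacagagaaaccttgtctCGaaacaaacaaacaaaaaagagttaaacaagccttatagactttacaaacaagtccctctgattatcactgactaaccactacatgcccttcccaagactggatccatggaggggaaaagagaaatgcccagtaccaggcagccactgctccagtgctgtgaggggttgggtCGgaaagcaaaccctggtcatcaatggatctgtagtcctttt
Mobp: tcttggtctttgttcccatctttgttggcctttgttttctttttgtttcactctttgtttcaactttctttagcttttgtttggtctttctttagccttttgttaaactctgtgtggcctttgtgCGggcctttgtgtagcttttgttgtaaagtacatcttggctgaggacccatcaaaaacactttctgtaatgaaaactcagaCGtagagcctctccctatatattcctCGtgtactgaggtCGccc
Cnp: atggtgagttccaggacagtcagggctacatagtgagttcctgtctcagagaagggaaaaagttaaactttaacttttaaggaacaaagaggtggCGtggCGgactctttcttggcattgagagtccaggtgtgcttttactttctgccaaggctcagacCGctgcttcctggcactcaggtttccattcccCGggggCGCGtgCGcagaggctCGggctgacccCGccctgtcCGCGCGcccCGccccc
Ugt8a: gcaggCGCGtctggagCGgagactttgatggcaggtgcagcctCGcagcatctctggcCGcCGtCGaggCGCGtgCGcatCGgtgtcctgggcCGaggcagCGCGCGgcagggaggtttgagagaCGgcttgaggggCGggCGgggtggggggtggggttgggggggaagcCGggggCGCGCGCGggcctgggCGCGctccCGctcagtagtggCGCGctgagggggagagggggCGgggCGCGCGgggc
Gpr37: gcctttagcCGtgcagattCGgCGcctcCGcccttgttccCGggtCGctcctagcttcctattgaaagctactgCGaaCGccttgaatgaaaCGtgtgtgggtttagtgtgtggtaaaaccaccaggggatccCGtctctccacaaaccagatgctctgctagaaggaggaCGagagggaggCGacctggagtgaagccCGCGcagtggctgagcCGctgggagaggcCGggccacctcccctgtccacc
Olig2: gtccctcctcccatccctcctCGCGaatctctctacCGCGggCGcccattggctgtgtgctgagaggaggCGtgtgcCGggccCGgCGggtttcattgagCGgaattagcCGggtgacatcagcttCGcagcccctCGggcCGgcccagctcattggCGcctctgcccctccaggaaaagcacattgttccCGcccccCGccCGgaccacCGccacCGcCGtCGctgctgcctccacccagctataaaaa

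Mog (chr17:37023399-37023648, minus strand) and Mobp (chr9:120149492-120149741, plus strand) held 2 and 4 CpG in these 250 bases. Cnp (chr11:100574689-100574938, plus strand) held 13, Gpr37 (chr6:25689981-25690230, minus strand) 16, Olig2 (chr16:91225300-91225549, plus strand) 22 and Ugt8a (chr3:125938653-125938902, minus strand) 32. The letters ACAAAG, core bases bound by Sox factors such as Sox10, were searched on both strands in 300 bases, from 250 before to 50 after each start. They occurred at 11 of the 30 start sites of these genes, 36.7%, and at 18.7% of all 32851 start sites in the table. The motif overlaps no other searched here. Start sites of the same gene were counted apart, as for Mag, Gjb1 and Lpar1. Windows of nearby starts overlap, as at Mag, so a match can be counted more than once. Mobp held 6 matches, each read as ctttgt in the sequence above, and was the single start site in the whole table with 6 or more, a feature singled out after its values were seen. A match describes the letters only and is not a site of binding.

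H3K4me3, the mark of active start sites that Setd1b can deposit, lay within 1 kb of a start in every control library of neuronal nuclei for 9 of the 22 genes, against 50.4% of 27025 genes in the table. All 9 are among the 17 mature genes with a start site at hand: Mal, Cldn11, Tspan2, Ugt8a, Lpar1, Qdpr, Gpr37, Cnp and Gjb1. For Gjb1 only the start at chrX:101383732 had the mark, with 152.8 bases covered on average in control libraries. Tspan2os starts within 1 kb of the Tspan2 starts, so the mark there cannot be assigned to Tspan2 alone. None of the 4 precursor genes in the table had the mark in every control library, with Cspg4 in 3 of 4 and Pdgfra in 2 of 4. The separate list of 18 other precursor genes went the other way. Of the 15 with a start site at hand, 12 had the mark in every control library. No peak of any of the 4 marks lay at Ermn, Mobp, Aspa, Opalin or Enpp6 in control libraries. Olig2 and Nkx2-2 had H3K4me1, the broader mark of poised or distal elements, in 3 of 4 control libraries and no H3K4me3 in any. Peaks present in every control library lay at 8 of the 22 genes for H3K9ac, 7 for H3K27ac and 12 for H3K4me1, against 49.0%, 48.3% and 54.8% of all genes.

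H3K4me3 was more frequent at CpG-rich starts, among these genes and over all start sites. The sites marked in every control library had 8 to 40 CpG in 300 bases (median 19, 11 sites), and those marked in none had 2 to 25 (median 4, 16 sites). No site with fewer than 5 CpG was marked in every library, 0 of 10, against 8.87% of all such sites. At 5 to 14 CpG 2 of 7 were marked in every library, against 47.9% of all. At 15 CpG or more 9 of 13 were, against 96.8% of all, and the unmarked or partly marked ones belonged to Olig2, Nkx2-2, Cspg4 and Nkx6-2, which are precursor genes or transcription factors of the lineage.

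**Figure D5:**
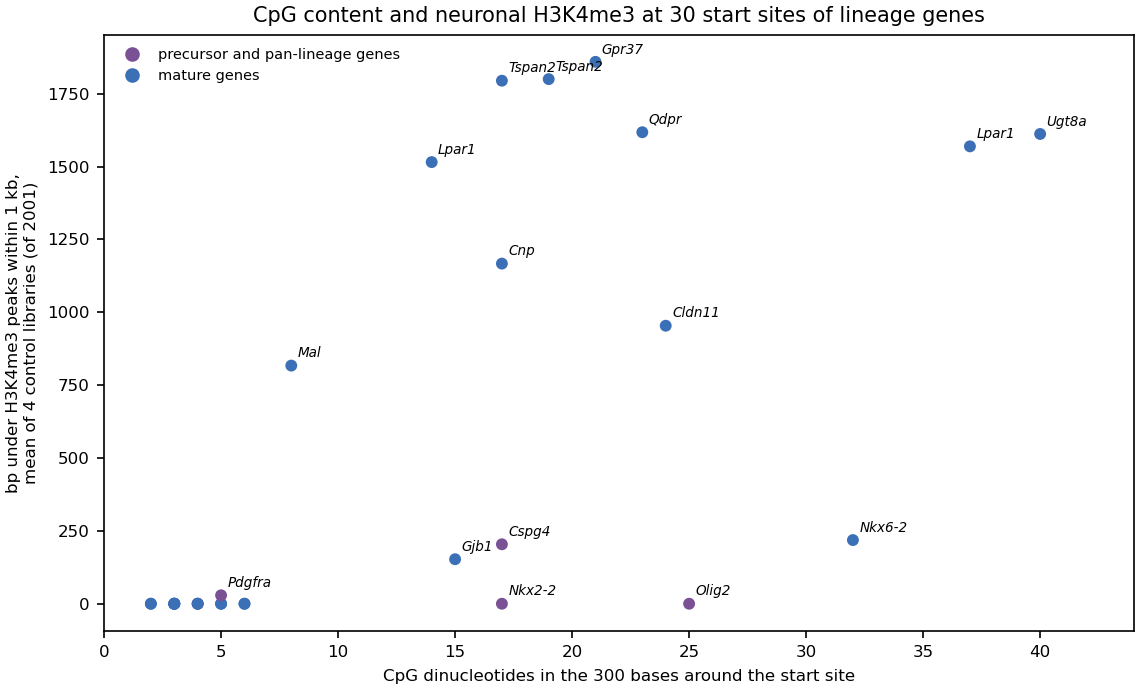
Bases under H3K4me3 peaks within 1 kb of each start site (mean of the 4 control libraries of neuronal nuclei) against the CpG count of the 300 bases around it, one point per start site of the lineage genes. Sites with few CpG lie at 0, and among the CpG-rich sites Olig2 and Nkx2-2 lie at 0 while Ugt8a, Gpr37 and Tspan2 lie high.

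The bases covered by peaks within 1 kb on each side of the start were compared between genotypes. Sites with a peak in at least 3 libraries were used. This coverage cannot exceed the window and does not record the height of the signal. Of the sites of these genes 13 were tested for H3K4me3, 12 for H3K9ac, 12 for H3K27ac and 19 for H3K4me1. One was called, at Ugt8a for H3K4me3, against 1.56% of all sites called for H3K4me3, 0.320% for H3K9ac, 0.343% for H3K27ac and 1.24% for H3K4me1. The stretch under H3K4me3 at Ugt8a covered 1601 to 1625 bases in the 4 control libraries and 1671 to 1700 bases in the 4 cKO libraries (log2 0.06, SE 0.01, limma adjusted p = 0.00921), so it was longer in the neuronal nuclei labelled cKO. The call was lost with a window of 500 bases on each side and when replicate number entered as a block. At Gpr37 the H3K4me3 stretch covered 1860 bases on average in control and 1863 in cKO libraries (limma adjusted p = 1). That is close to the full window, so coverage could rise little there. Whether the height of the H3K4me3 signal differed at Gpr37 was not tested.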

How the data were processed

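The values used were the deposited gene-level read counts of each RNA library, whole numbers per Ensembl gene ID as the authors deposited them, and the authors' deposited peak lists of each ChIP-seq library. Per the file headers, peaks were called per library with MACS 2.1.0.20140616 (2.1.1.20160309 for H3K4me3) at a q-value threshold of 0.1, with 1 input per genotype and broad calling for H3K4me1, and each deposited peak carries its −log10 q-value. Builds mm10 and GRCm38 are named in the submitters' processing notes. The aligner, read counter, annotation and strand setting are not given in the sources used here. Replicates 1 to 3 of whole CA RNA carry the first sequencing lane in their deposited names and replicates 4 to 6 the second.

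The edgeR 4.0.16 quasi-likelihood test (TMM factors, filterByExpr, R 4.3.3) was applied to the counts, separately for whole tissue and neurons, with 1 fit of all 18 libraries for contrasts between materials. Benjamini-Hochberg adjustment ran over all genes tested, with a threshold of 0.05. CPM were computed from the deposited counts on the TMM-scaled library size. DESeq2 1.42.0, other scalings and filters, the lane, the replicate number as a block and leaving out each library were alternatives. Bases under peaks within 1000 of each start site were tested with limma 3.58.1 on log2(bases + 100). The tests were tried on simulated data. For each gene called in whole tissue, neurons or the difference, the neuron value in every library is given. Its whole-tissue values are given as lowest, median and highest. The same holds for 11 genes set beforehand (Mbp, Mog, Cnp, Mag, Olig2, Sox10, Myrf, Pdgfra, Cspg4, Gpr17 and Enpp6). The genes and lists were chosen with earlier results of these data known.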

Additional observations from a re-analysis of the deposited data

Results flagged for a closer look

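Enpp2 had an isolated high library in whole tissue: cKO replicate 5 had 230.2 CPM and the next cKO library 190.1. The summed level of the choroid plexus markers in that library was 17.9 CPM, the lowest of the cKO libraries, whose highest was 21.4 CPM. Kl outweighed the other markers in control whole tissue, at 28.2 CPM on average against 5.45 for Ttr, the next highest. Kl was itself called lower with cKO in whole tissue and in neurons. The sum therefore cannot show how much choroid plexus that library held, and the source of the Enpp2 value was not tested. Fa2h had 44.4 CPM in cKO replicate 6 and 38.4 in the next cKO library. These were 2 of 64 groups of 6 libraries examined for a lone extreme value, where chance gives about 1 in 20. Gpr37 differed between whole tissue and neurons in its genotype effect, by 0.56 on the log2 scale (edgeR adjusted p = 0.0470), and DESeq2 called this difference too.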

How the results depend on the processing

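In whole tissue the count of lineage genes called, 1 at first, was 3 at an adjusted p under 0.1, 3 with DESeq2, 2 with the replicate block (Ugt8a and Gpr17, the latter at an edgeR adjusted p of 0.0210) and 0 in each lane alone, and 0 to 2 on leaving out 1 library. All genes called, 640 at first, were 207 among replicates 1 to 3 and 224 among replicates 4 to 6, where fewer libraries were fitted, and 839 with the replicate block. In neurons the count, 1 at first, was 2 at an adjusted p under 0.1, 2 with DESeq2, 1 with the replicate block and 0 to 1 on leaving out 1 library. The difference between materials, 1 at first, gave 0 with library size alone as the scale, 0 with mitochondrial genes left out and 0 to 1 on leaving out 1 library. The marks, 1 site at first, gave 0 with 500 bases on each side and 0 with the replicate block. With the sequencing lane as a covariate 1 lineage gene, Ugt8a, and 683 genes in all were called in whole tissue. The cause of these changes was not tested. All 32 genes were lower in neuron RNA than in whole tissue under every alternative run. Called genes kept their sign in all alternatives, while 17 of the 32 genes, none of them called, changed sign in some whole-tissue alternative. Same-numbered libraries did not all deviate together (correlations −0.07 to 0.25 in whole tissue and −0.17 to 0.38 in neurons), nor did every library correlate best with its own number, so the numbers were not taken to pair them. Low counts limit Nkx2-2 and Nkx6-2 in whole tissue. In neurons they limit Nkx2-2, Nkx6-2, Gjb1, Enpp6, Trf, Aspa, Olig2 and Opalin, and every gene there rests on 3 libraries a group.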
